A study of Mus musculus with 12 samples.

Results

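Gene expression was compared between RAW264.7 cells that had received culture supernatant of the bacterium Lactobacillus reuteri and cells that had received vehicle, 1 day after the start of stimulation. The 4 libraries of day 1 were used, 2 per group, of the 12 libraries of a series that also sampled days 3 and 5. They were chosen by their labelled treatment and day alone, and all genes in them were considered. RAW264.7 cells are an immortalized, macrophage-like mouse line, labelled as Balb/c. The supernatant group received RANKL, labelled at 100 ug/ml, and supernatant. The vehicle group received the same RANKL and MEM-alpha medium, so both groups were under differentiation conditions and no library came from cells without RANKL. No group given bacterial growth medium alone entered the comparison. Nothing in the labels states that the numbered libraries of a group had cultures of their own, so every p-value reflects library-to-library spread that may be technical.

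RANKL is the cytokine that turns cells of the macrophage lineage into osteoclasts, the multinucleated cells that resorb bone. It acts through its receptor RANK, adaptors of the TRAF family, NF-kB and AP-1, and these induce NFATc1, the master transcription factor of the osteoclast program. Macrophages also sense bacterial products through Toll-like receptors, C-type lectins and receptors for metabolites, which lead to NF-kB and interferon responses. Interferons and some inflammatory signals are known to restrain osteoclast formation.

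RNA was read with TruSeq libraries made from total RNA, and the authors deposited log2 values of normalized counts per gene, which have the same sum in every library. Depth was 14789954 and 14856192 reads on genes in the supernatant libraries and 16781080 and 14158589 in the vehicle libraries. Replicates differed by more than sampling noise, with a chi-square per degree of freedom of 4.93 between the supernatant libraries and 3.94 between the vehicle libraries. The first principal component carried 64.3% of the variance and separated the groups. Mitochondrial genes took 5.11% and 5.97% of reads in the supernatant libraries and 5.11% and 5.33% in the vehicle libraries. All 10 macrophage markers were present, and their summed count was 183271 and 176140 in the supernatant libraries and 146890 and 134226 in the vehicle libraries, most of it Lyz2. Of these 10, Lyz2, Cd14, Cd68 and Fcgr1 rose in the test described next and none fell, while the lineage markers Csf1r, Adgre1, Itgam, Ptprc, Spi1 and Tyrobp did not pass. The part of this summed rise in the results was not tested. Markers of other lineages were at or near 0 apart from Lck, at 42.1 and 34.2 in the supernatant libraries and 24.2 and 29.6 in the vehicle libraries, and Vwf, at 56.7 and 44.5 in the supernatant libraries and 59.1 and 53 in the vehicle libraries. Epcam, Cd3d, Trac, Cd8a and Ms4a1 had no reads, the 4 measured neutrophil markers summed to 10.3 and 6.0 in the supernatant libraries and 3.0 and 5.4 in the vehicle libraries, and the 2 measured fibroblast markers to at most 1.7. Among 8 markers of mature osteoclasts, Calcr and Itgb3 were near 0, at most 6.0 in any library, and Acp5 did not exceed 25.8. Dcstamp, Atp6v0d2, Ctsk, Mmp9 and Ocstamp were present at higher counts. The 8 markers summed to 2639.0 and 2509.2 in the supernatant libraries and 2414.5 and 2285.4 in the vehicle libraries, most of it Dcstamp. Of these 8, Ctsk and Atp6v0d2 rose and Ocstamp fell. In bulk RNA a change in the share of cells that express a gene and a change in its RNA per cell cannot be told apart.

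Supernatant changed the levels of many genes, mostly by small amounts, and the large changes were mostly rises. Of 13651 genes tested with limma on log2(normalized count + 1), 2237 (16.4%) passed a Benjamini-Hochberg adjusted p of 0.05, of which 994 (7.28%) rose and 1243 (9.11%) fell. "Rose" and "fell" refer to this test throughout, and a log2 difference is supernatant minus vehicle. A gene was tested if its mean normalized count reached 10 in either group. Genes that reached 10 in the supernatant group alone, such as Saa3, Mmp14 and Nos2, could therefore only be higher there. The same holds in reverse. Among rises 162 were of at least 1 log2 unit (1.19% of genes tested) and 27 of at least 2, against 28 (0.205%) and 1 among falls. The median rise was 0.49 and the median fall -0.31, and the median over all genes tested was -0.046. Groups did not overlap at 56.6% of genes, with the supernatant libraries higher at 21.7% and lower at 34.9%. Most genes named below were chosen for small p or for lack of overlap. Lack of overlap at such genes largely follows from that choice and only describes their values. The counts depended on how the spread was estimated, though no gene was called in the opposite direction under any alternative. Without the filter on low counts 285 rose and 150 fell, and with a prior that does not follow the trend of spread with level 161 rose and 43 fell. Without vehicle replicate 2 there were 701 rises and 637 falls, and without supernatant replicate 2 there were 817 rises and 811 falls. Rises made up 44.4% of the calls, 55.4% after quantile normalization and 59.3% with size factors recomputed by median ratio, which shifted all log2 differences by 0.038. For each gene list described from here on, the fits without the filter and without the trend called the same number of members or fewer in each direction. Of 241 called genes among those chosen for naming, 180 lost the call without the trend and 125 without the filter. These losses are not stated for every gene below.

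**Figure D1:**
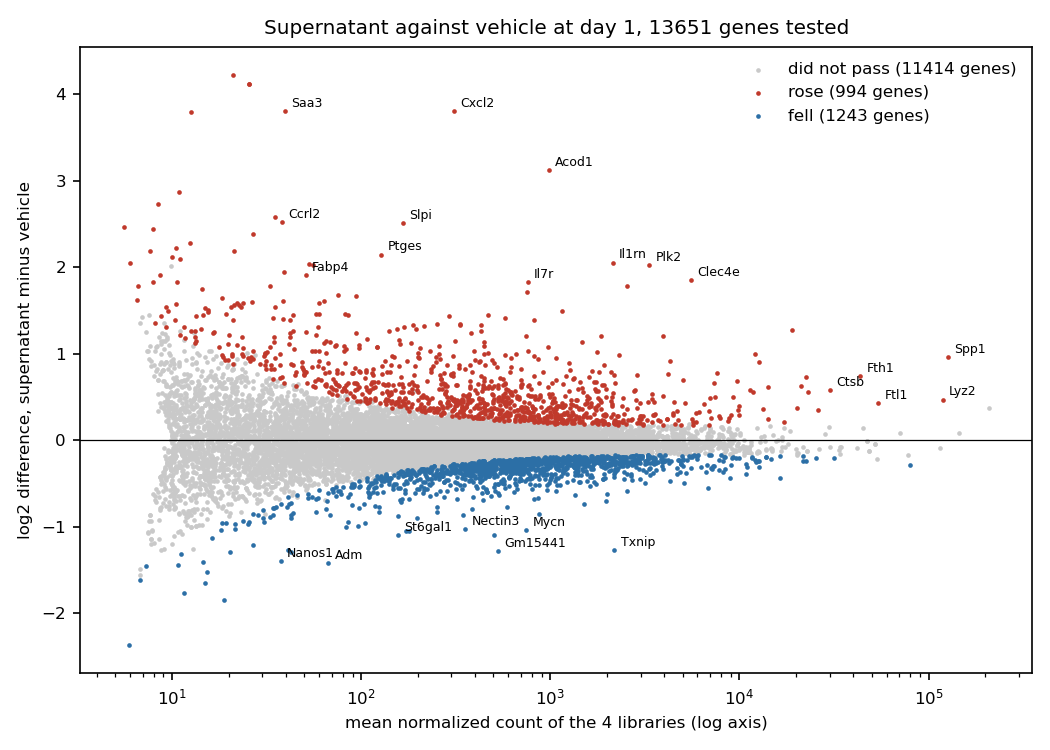
Log2 difference between supernatant and vehicle libraries (vertical axis) against the mean normalized count over the 4 libraries (log horizontal axis), 1 point per gene tested. Red points are the 994 genes that rose, blue points the 1243 that fell and grey points those that did not pass. Rises reach 3.81 among genes of at least 50 counts in the higher group, falls -1.42.

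Chemokine genes were among the largest rises. Cxcl2, which encodes a neutrophil-attracting chemokine, had 599.0 and 535.5 normalized counts in the supernatant libraries and 78.0 and 19.7 in the vehicle libraries, so that both supernatant libraries lay far above both vehicle libraries, which themselves differed severalfold. Its log2 difference was 3.81 (SE 0.32, limma adjusted p = 2.82e-08), though it missed the threshold without the filter (adjusted p = 0.0611) and without the trend (0.0807). Ccl3 and Ccl4, chemokine genes of the CC class, were present at higher counts: Ccl3 had 4039.7 and 3830.1 normalized counts in the supernatant libraries and 1496.6 and 869.8 in the vehicle libraries, and Ccl4 had 1191.9 and 1109.6 normalized counts in the supernatant libraries and 420.3 and 292.6 in the vehicle libraries. Both rose, by 1.78 and 1.71, without overlap between groups. Without overlap as well, Ccl2, which attracts monocytes, and Osm, which encodes the cytokine oncostatin M, rose by 1.05 and 1.25. Tnf rose by 0.60 to 643.6 and 633.1 in the supernatant libraries, against 443.8 and 400.4 in the vehicle libraries. Ccl2 and Osm missed the threshold without the filter (limma adjusted p = 0.0855 and 0.0817). Without the trend Ccl3 (0.0702), Ccl2 (0.0888), Osm (0.0763) and Tnf (0.0634) missed it. In all, 7 of 13 tested cytokine and chemokine genes rose, 1 fell and 5 did not pass, with a median of 0.60. Another 12 of the 25 found were under the filter. The fall was that of Cxcl16, by 0.32, which was lost without supernatant replicate 2 (adjusted p = 0.0627) or vehicle replicate 2 (0.11). Il1b and Il6 were below the filter in both groups. Without the filter 3 of the list rose, and without the trend 1.

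The promoter of Cxcl2 is printed because it holds a kB motif, GGG and TTTCC with 2 bases of any kind between them, the kind of site that NF-kB binds. Promoters here are the 250 bases before the RefSeq start of the gene (GRCm38.p6), 5′ to 3′ in the direction of the gene, and both strands were searched. Of the symbols tested, 9181 (67.4%) had an entry, too few for a share over all rises or all falls to be read. Capitals mark the 2 matches in the window at chr5:90903649-90903898 (plus strand), the first of which begins 97 bases before the start. The motif was found in 1.41% of all 32851 promoters of the table and 1.74% of those of genes tested, and a match is a description of the letters only.
Cxcl2: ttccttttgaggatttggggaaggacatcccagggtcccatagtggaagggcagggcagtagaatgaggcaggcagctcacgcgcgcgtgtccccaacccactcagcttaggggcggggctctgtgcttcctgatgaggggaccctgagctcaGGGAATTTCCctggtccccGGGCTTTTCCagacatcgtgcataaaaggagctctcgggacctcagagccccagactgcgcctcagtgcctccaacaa

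Several enzymes that make small inflammatory mediators rose as well. Acod1, whose product makes itaconate, had 1780.5 and 1744.4 normalized counts in the supernatant libraries and 218.9 and 185.8 in the vehicle libraries, the smallest p of all genes tested (adjusted p = 1.13e-16). Ptgs2, which encodes cyclooxygenase 2, had 838.7 and 836.7 normalized counts in the supernatant libraries and 367.3 and 268.4 in the vehicle libraries, and Ptges, the prostaglandin E synthase that acts after it, had 209.7 and 207.0 normalized counts in the supernatant libraries and 53 and 40.4 in the vehicle libraries. Both pairs of supernatant libraries agreed within a few percent and lay above the vehicle libraries, with log2 differences of 1.41 and 2.15. Hpgds, which makes prostaglandin D, rose by 0.43. Alox5, which starts leukotriene synthesis, the prostaglandin E receptor gene Ptger4 and Pla2g4a, which releases arachidonate, fell by 0.49, 0.44 and 0.26. These 3 falls were each lost without 1 library, Alox5 without vehicle replicate 1 (adjusted p = 0.101), Ptger4 without vehicle replicate 2 (0.135) and Pla2g4a without supernatant replicate 1 (0.173) or vehicle replicate 1 (0.199). In the prostaglandin list 3 of 13 tested members rose, 3 fell and 7 did not pass, and without vehicle replicate 1 the falls were 1. Of the genes of nitric oxide, itaconate, arginine and polyamine metabolism, 7 of 13 rose and none fell (median 0.50). They included Odc1, which makes putrescine, at 9939.9 and 9328.4 normalized counts in the supernatant libraries and 6042.3 and 5241.4 in the vehicle libraries, Ass1, which regenerates arginine, at 243.2 and 237.0 normalized counts in the supernatant libraries and 136.3 and 147.2 in the vehicle libraries, and Sod2, the mitochondrial superoxide dismutase, at 1728.1 and 1792.3 normalized counts in the supernatant libraries and 1111.1 and 1101.4 in the vehicle libraries. Groups did not overlap at any of the 3, which were chosen for their small p. Nos2, the inducible nitric oxide synthase, stayed at low counts, with 18.9 and 9.4 normalized counts in the supernatant libraries and 1.5 and 1.8 in the vehicle libraries, and its call was lost without supernatant replicate 1 (adjusted p = 0.163).

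Of 11 tested genes for decoys and antagonists of cytokines 3 rose, 1 fell and 7 did not pass. Il1rn, which encodes the interleukin 1 receptor antagonist, had 3581.7 and 3321.9 normalized counts in the supernatant libraries and 905.8 and 761.2 in the vehicle libraries. Il13ra2, which encodes a decoy receptor for interleukin 13, had 1630.2 and 1780.3 normalized counts in the supernatant libraries and 602.1 and 611.3 in the vehicle libraries, and Tnfrsf1b, the second TNF receptor, had 935.8 and 865.8 normalized counts in the supernatant libraries and 510.5 and 504.5 in the vehicle libraries. All 3 separated the groups and were called under every alternative, with log2 differences of 2.05, 1.49 and 0.83. Il13ra1, the signalling chain of the same receptor family, fell by 0.36, a call that missed the threshold without vehicle replicate 1 (adjusted p = 0.0545). The feedback inhibitor Socs3 did not pass (log2 difference -0.65, adjusted p = 0.0615). Ikbke, which encodes the kinase IKK epsilon, had 260.4 and 276.3 normalized counts in the supernatant libraries and 114.4 and 97.8 in the vehicle libraries and rose by 1.33, whereas Ikbkg, which encodes the scaffold NEMO, fell by 0.35. Nfkbiz, an atypical nuclear IkB, rose by 0.65. Of 16 NF-kB and IkB genes 4 rose, 2 fell and 10 did not pass; the rises were 2 without supernatant replicate 1, and the falls were 1 without any of the other 3 libraries. Tnfaip3, which encodes the deubiquitinase A20, rose by 0.54 to 452.0 and 431.2 in the supernatant libraries, against 316.6 and 292.6 in the vehicle libraries, while Tnip3, which encodes a partner of A20, fell by 0.45. Among 22 Toll-like receptor and adaptor genes 4 rose, 3 fell and 15 did not pass, and the rises were 1 without vehicle replicate 2 and the falls 1 without vehicle replicate 1. Tlr2 had 1431.6 and 1288.4 normalized counts in the supernatant libraries and 1294.3 and 1225.3 in the vehicle libraries, with overlap between groups (adjusted p = 0.302). Irak2, an adaptor kinase, rose by 0.41, and Cd14, the co-receptor for bacterial lipids, by 0.25, which was lost without supernatant replicate 1 (adjusted p = 0.134) or vehicle replicate 2 (0.274).

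**Figure D2:**
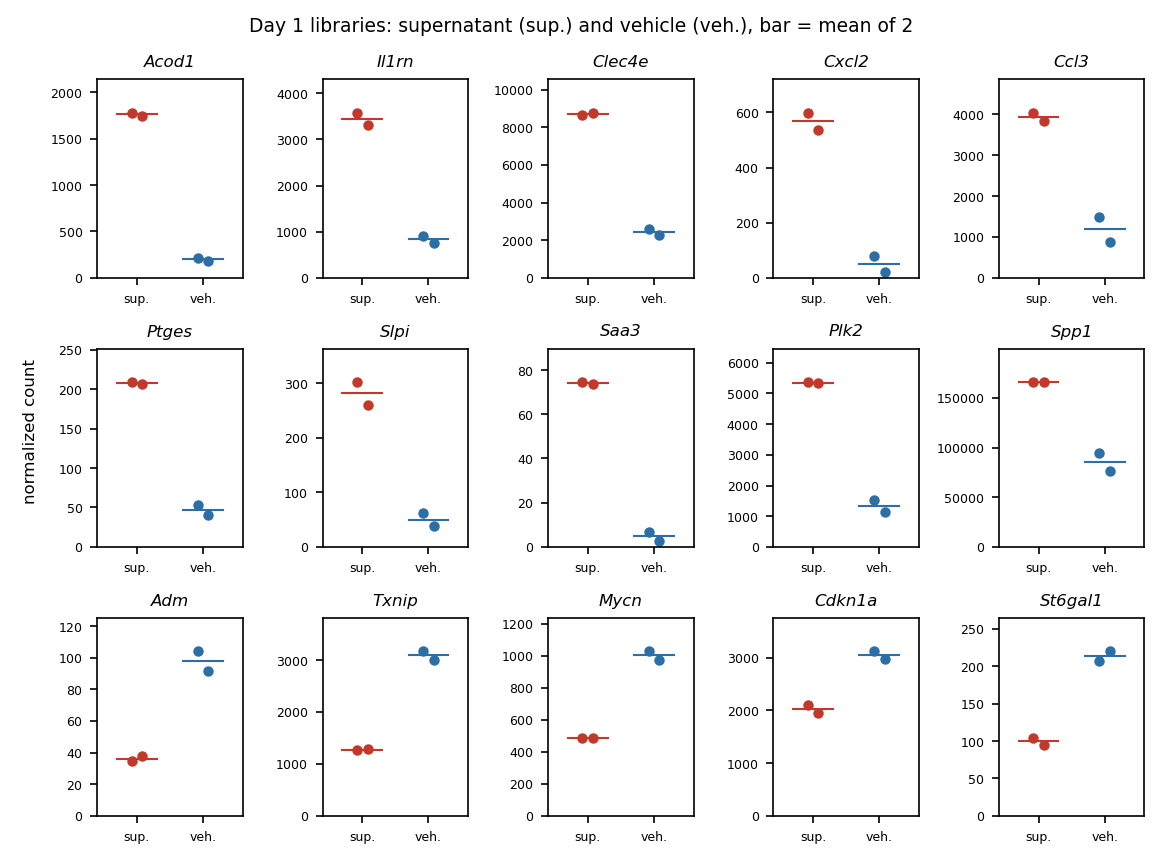
Normalized counts of 15 genes in the 2 supernatant (left, red) and 2 vehicle (right, blue) libraries, with the mean of each pair as a bar and axes starting at 0. The groups do not overlap in any panel, which the rule for choosing genes required for all but Ccl3, Spp1 and Cdkn1a. The vehicle libraries of Cxcl2, at 78.0 and 19.7, show the widest relative spread.

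Surface receptors of the macrophage moved in both directions. Clec4e, which encodes the lectin Mincle, a sensor of glycolipids, had 8675.0 and 8784.3 normalized counts in the supernatant libraries and 2574.3 and 2275.5 in the vehicle libraries (log2 difference 1.85, SE 0.06, adjusted p = 8.83e-15). The linked lectin genes Clec4n and Clec4d, which encode Dectin-2 and MCL, had 234.6 and 242.1 normalized counts in the supernatant libraries and 113.6 and 80.8 in the vehicle libraries, and 3972.7 and 4032.0 normalized counts in the supernatant libraries and 2994.6 and 2754.9 in the vehicle libraries, and rose by 1.31 and 0.48. Clec4a2, a lectin gene of the inhibitory type, instead had 212.3 and 211.3 normalized counts in the supernatant libraries and 315.8 and 353.7 in the vehicle libraries and fell by 0.66. Fcgr2b, the inhibitory receptor for IgG, rose by 0.93. Of 19 lectin and phagocytic receptor genes 7 rose, 2 fell and 10 did not pass. Among scavenger receptors, Msr1 had 8881.2 and 9068.3 normalized counts in the supernatant libraries and 5706.8 and 5636.4 in the vehicle libraries, and Siglec1, a sialic acid receptor that interferon is known to induce, had 219.1 and 178.8 normalized counts in the supernatant libraries and 87.1 and 77.2 in the vehicle libraries. Neither pair overlapped, and the log2 differences were 0.66 and 1.26. Stab1, another scavenger receptor gene, rose by 0.76, while Cxcl16 fell. Of 17 scavenger receptor and adhesion genes 6 rose, 2 fell and 9 did not pass (median 0.024), and the falls were 1 when any 1 library was left out. Spp1, which encodes osteopontin, a secreted phosphoprotein of macrophages and bone, had the most counts of all genes that rose, with 166391.6 and 166441.1 normalized counts in the supernatant libraries and 94676.5 and 76839.9 in the vehicle libraries. It rose by 0.96, which missed the threshold only without the trend (adjusted p = 0.057). Of the antimicrobial and acute-phase genes 8 of 10 tested rose, 1 fell and 1 did not pass (median 0.72). Another 8 of the 18 found were under the filter, which Saa3 passed through the supernatant group alone. With the filter at a mean of 50, 6 rose and 1 fell (median 0.51). Without the filter 4 rose and 0 fell. Slpi, which encodes a secreted protease inhibitor, had 303.3 and 260.9 normalized counts in the supernatant libraries and 61.3 and 38.6 in the vehicle libraries, Saa3, an acute-phase gene of macrophages, had 74.8 and 73.6 normalized counts in the supernatant libraries and 6.8 and 2.7 in the vehicle libraries, and complement C3 had 658.2 and 638.2 normalized counts in the supernatant libraries and 340.1 and 340.2 in the vehicle libraries. These 3 were called under every alternative. Lyz2 and Lyz1, the lysozyme genes, rose by 0.47 and 0.55, but they are close paralogs whose reads the counting could have split. Lyz2 had the same rank in all 4 libraries, so its difference after quantile normalization was 0.00 by construction. Cfp, which encodes properdin of the alternative complement pathway, fell by 0.47.

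Most interferon-stimulated genes rose. Of 39 tested antiviral genes 33 rose, 1 fell and 5 did not pass, and the median was 0.87. Groups did not overlap at 56.6% of all genes tested and at 38 of these 39. Between 30 and 31 of them rose when any 1 library was left out, 18 without the filter and 13 without the trend. Oas3 and Oas2, which make the activator of RNase L, had 1686.9 and 1575.0 normalized counts in the supernatant libraries and 924.0 and 828.5 in the vehicle libraries, and 620.4 and 622.8 normalized counts in the supernatant libraries and 313.6 and 306.1 in the vehicle libraries. Ddx58, which encodes the RNA sensor RIG-I, had 828.4 and 770.8 normalized counts in the supernatant libraries and 442.3 and 445.2 in the vehicle libraries. Groups did not overlap at any of these 3, which were chosen for their small p. Ifi204, a DNA sensor gene, had 568.9 and 546.7 normalized counts in the supernatant libraries and 306.0 and 286.4 in the vehicle libraries, and the antiviral poly-ADP-ribosyl transferase gene Parp14 had 1143.8 and 1188.3 normalized counts in the supernatant libraries and 717.2 and 630.2 in the vehicle libraries. The largest difference in the list was that of Rsad2, which encodes viperin, with 95.4 and 77.0 normalized counts in the supernatant libraries and 19.7 and 20.6 in the vehicle libraries (log2 difference 2.03, SE 0.22, adjusted p = 8.17e-07). Near copies of Oas and Ifi200 genes may share reads, and Mx1, named after its values were seen, was below the filter. Of the factors that drive these genes, Irf7 had 448.6 and 411.5 normalized counts in the supernatant libraries and 207.5 and 180.4 in the vehicle libraries and rose by 1.15, and Irf9 and Stat2, which encode parts of the complex ISGF3, rose by 0.60 and 0.42. Ifngr1, a chain of the interferon gamma receptor, fell by 0.26, which was lost without supernatant replicate 2 (adjusted p = 0.119) or vehicle replicate 2 (0.115). In this list 6 of 20 rose, 1 fell and 13 did not pass. Interferon-inducible GTPase genes gave 6 rises among 8 tested and no fall, and another 6 of the 14 found were under the filter. Among the rises was Gvin1, with 1002.8 and 1159.2 normalized counts in the supernatant libraries and 632.4 and 476.7 in the vehicle libraries. Irgm1, which also rose, had 404.7 and 413.2 normalized counts in the supernatant libraries and 298.4 and 269.3 in the vehicle libraries. Without supernatant replicate 1 the rises were 3, and Gvin1 has near copies with which it may share reads. Of 23 genes of antigen presentation on MHC class I, 9 rose, none fell and 14 did not pass. H2-T23, a nonclassical class I gene, rose by 0.68, the peptide transporter gene Tap1 by 0.47 and the immunoproteasome subunit gene Psmb8 by 0.39. Class I genes resemble each other, so their reads may be split, and without vehicle replicate 2 the rises were 5.

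Promoters of Oas3 and Rsad2 are printed because they hold GAAA followed after 2 bases of any kind by GAAA again, the core of the interferon-stimulated response element to which ISGF3 and IRF proteins bind. The motif was present in 2.98% of all promoters and 3.3% of those of genes tested. Of the 39 tested antiviral genes 29 had an entry, too few for a share over the list to be read, and 11 of the 29 held the motif. Of these 11, 10 were of genes that rose, beside 33 rises among all 39 tested, and a link of motif and rise was not tested. The windows are chr5:120777660-120777909 for Oas3 and chr12:26456453-26456702 for Rsad2, both on the minus strand. Capitals mark the match, which begins 75 bases before the start in Oas3, and 120 bases before it and on the opposite strand in Rsad2.
Oas3: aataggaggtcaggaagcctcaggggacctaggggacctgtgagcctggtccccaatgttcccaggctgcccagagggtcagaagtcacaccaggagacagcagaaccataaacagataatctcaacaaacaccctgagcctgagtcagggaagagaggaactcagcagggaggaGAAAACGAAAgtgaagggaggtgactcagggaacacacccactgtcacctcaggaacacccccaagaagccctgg
Rsad2: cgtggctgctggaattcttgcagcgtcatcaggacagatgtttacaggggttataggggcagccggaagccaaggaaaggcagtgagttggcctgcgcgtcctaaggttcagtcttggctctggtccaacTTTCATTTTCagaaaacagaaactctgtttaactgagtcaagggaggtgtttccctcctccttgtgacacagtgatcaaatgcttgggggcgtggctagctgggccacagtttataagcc

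Genes of the integrated stress response, which senses amino acid shortage and other insults through ATF4, rose in part, and none fell. Of 32 tested, 16 rose and 16 did not pass, with a median of 0.22, and 8 rose without the filter and 3 without the trend. Slc7a11, which encodes the cystine importer, had 2569.4 and 2604.1 normalized counts in the supernatant libraries and 1192.1 and 1053.8 in the vehicle libraries, and its partner chain gene Slc3a2 had 2308.2 and 2451.9 normalized counts in the supernatant libraries and 1614.7 and 1552.9 in the vehicle libraries. The transcription factor gene Atf3 had 1991.9 and 2053.2 normalized counts in the supernatant libraries and 1001.2 and 849.2 in the vehicle libraries, and Ddit3, which encodes CHOP, had 361.8 and 361.0 normalized counts in the supernatant libraries and 153.7 and 132.0 in the vehicle libraries. In each of these genes both supernatant libraries were above both vehicle libraries, and Slc7a11, Atf3 and Ddit3 were called under every alternative, with log2 differences of 1.21, 1.13 and 1.34. Ppp1r15a, which encodes the feedback subunit GADD34, and Trib3, a pseudokinase that restrains ATF4, rose by 0.99 and 0.96. Of 21 genes of the neighbouring unfolded protein response 3 rose, 1 fell and 17 did not pass. The mean was higher in the supernatant libraries for 16 of the 21 and for 40.7% of all genes tested. The highest difference in the list was 0.42, of the sensor gene Ern1. Without vehicle replicate 2 the rises were 1 and the falls 0. Among heat shock chaperones and their regulators, mostly of the cytosol but also of mitochondria, every call was a fall. Of 22 tested, 10 fell, with no rise, and the other 12 did not pass the test (median -0.12). Dnajb4 had 628.2 and 700.7 normalized counts in the supernatant libraries and 1026.2 and 1082.6 in the vehicle libraries, and Dnaja1, another cochaperone of Hsp70, had 1898.3 and 2084.0 normalized counts in the supernatant libraries and 2548.5 and 2501.8 in the vehicle libraries. Neither overlapped between groups. Hspa1b, an inducible Hsp70 gene, had 23.2 and 24.0 normalized counts in the supernatant libraries and 56.8 and 60.1 in the vehicle libraries, but it may share reads with its near-identical copy Hspa1a. The falls in this list were 5 without supernatant replicate 1, 6 without supernatant replicate 2, 6 without vehicle replicate 1, 2 without the filter and 1 without the trend.

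Promoters of Slc7a11 and Atf3 are shown for the letters TGATGNAA, the core of the amino acid response element to which ATF4 and CHOP bind. The motif was found in 3.45% of all promoters and 2.43% of those of genes tested, and in 9 of the 28 tested stress response genes with an entry. Part of the 32 tested genes had no entry, so a share over the list was not read. Of the 9 genes 7 rose, beside 16 of all 32 tested in the list, and a link of motif and rise was not tested. The windows are chr3:50443614-50443863 for Slc7a11, with 2 matches, and chr1:191183334-191183583 for Atf3, with 1 match on the opposite strand, both on the minus strand of the chromosome. The first match begins 66 bases before the start in Slc7a11 and 110 bases before it in Atf3.
Slc7a11: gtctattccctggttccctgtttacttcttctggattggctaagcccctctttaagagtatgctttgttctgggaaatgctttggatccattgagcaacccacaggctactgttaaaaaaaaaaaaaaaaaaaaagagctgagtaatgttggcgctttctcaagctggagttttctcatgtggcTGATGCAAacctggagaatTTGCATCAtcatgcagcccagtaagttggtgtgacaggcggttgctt
Atf3: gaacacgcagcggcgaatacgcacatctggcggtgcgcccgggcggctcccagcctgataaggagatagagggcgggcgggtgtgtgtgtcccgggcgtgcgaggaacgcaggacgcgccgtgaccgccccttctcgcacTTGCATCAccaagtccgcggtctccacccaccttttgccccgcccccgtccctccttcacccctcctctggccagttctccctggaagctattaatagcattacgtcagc

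Among genes that respond to glucose and oxygen nearly all calls were falls. Txnip, which binds thioredoxin and restrains glucose uptake, had 1273.5 and 1279.0 normalized counts in the supernatant libraries and 3181.7 and 2999.1 in the vehicle libraries, and Klf10, which encodes a zinc finger repressor, had 281.9 and 282.3 normalized counts in the supernatant libraries and 482.4 and 501.8 in the vehicle libraries. Mxd4, which encodes a partner of MAX that opposes MYC, had 128.0 and 105.2 normalized counts in the supernatant libraries and 230.2 and 253.1 in the vehicle libraries, and Arrdc3, an arrestin gene of the Txnip family, had 199.4 and 193.3 normalized counts in the supernatant libraries and 281.0 and 325.8 in the vehicle libraries. The groups stood apart at all 4, with falls of 1.27, 0.80, 1.05 and 0.62 on the log2 scale. Gm15441, a noncoding gene that lies opposite Txnip, fell by 1.28 to 300.8 and 315.7 in the supernatant libraries, against 799.0 and 705.6 in the vehicle libraries. The strand setting of the counting is not given in the sources used here, so reads of these 2 genes cannot be told apart where they overlap. In the list of Txnip relatives and glucose-responsive genes 5 of 10 fell, with no rise, and the other 5 did not pass the test. Of 33 genes of glycolysis and of the hypoxia factor HIF-1, 14 fell, 1 rose, and 18 did not pass, with a median of -0.17. The rise was that of Hif1a, by 0.19, named after its values were seen, and it was lost when any 1 library was left out. Bnip3, a mitophagy receptor gene, had 3561.9 and 3659.0 normalized counts in the supernatant libraries and 4988.8 and 5038.5 in the vehicle libraries, and Pdk1, which holds pyruvate back from the mitochondria, had 2305.6 and 2279.1 normalized counts in the supernatant libraries and 3084.8 and 3014.3 in the vehicle libraries. Adm, which encodes adrenomedullin, had 34.4 and 37.6 normalized counts in the supernatant libraries and 104.5 and 91.6 in the vehicle libraries, the largest fall among genes of at least 50 counts (-1.42). The falls in this list were 6 without supernatant replicate 2, 6 without vehicle replicate 1, 4 without the filter and 1 without the trend. Subunits of oxidative phosphorylation gave 2 falls among 31 (1 without supernatant replicate 1) and the citrate cycle 2 among 20 (1 without supernatant replicate 2 or vehicle replicate 1). Cytosolic ribosomal protein genes gave no call among 34. In these lists, in this order, falls were 6.45%, 10.0% and 0.0% of the members tested, against 9.11% of all genes tested. The mean was lower in the supernatant libraries for 30, 17 and 31 members, while it was higher in them for 40.7% of all genes tested. The medians were -0.12, -0.09 and -0.07, against -0.046 over all genes tested. With recomputed size factors the mean was lower for 27, 13 and 27 members. The medians were then -0.081, -0.052 and -0.033, against -0.0073 over all genes tested.

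The promoter of Txnip is shown for CACGNG repeated after 5 bases of any kind, a pair of E boxes of the kind bound by the glucose sensor MondoA with MLX. The motif was found in 0.0457% of all promoters and 0.0871% of those of genes tested, and Txnip alone among the 9 listed genes with an entry held it. Capitals mark the match in chr3:96557707-96557956 (plus strand), which begins 85 bases before the start.
Txnip: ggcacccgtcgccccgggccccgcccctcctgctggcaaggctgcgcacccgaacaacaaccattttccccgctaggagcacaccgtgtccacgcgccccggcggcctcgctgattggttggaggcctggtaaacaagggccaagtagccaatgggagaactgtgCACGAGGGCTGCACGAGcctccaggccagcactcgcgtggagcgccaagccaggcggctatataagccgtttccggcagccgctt

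Iron and redox genes were split. Fth1, the heavy ferritin chain gene, had 53176.3 and 55927.5 normalized counts in the supernatant libraries and 33865.8 and 31384.6 in the vehicle libraries, and Ftl1, the light chain gene, had 66445.3 and 57684.7 normalized counts in the supernatant libraries and 47606.7 and 44714.7 in the vehicle libraries. Tfrc, the transferrin receptor gene, had 3996.8 and 4028.6 normalized counts in the supernatant libraries and 5660.6 and 4925.4 in the vehicle libraries. Ferritin thus stood higher and the receptor lower in both supernatant libraries, with log2 differences of 0.74, 0.42 and -0.40. Ftl1 has processed copies that may share its reads, and it was not called without the filter (adjusted p = 0.0931). Ncoa4, the receptor that carries ferritin to the lysosome, fell by 0.29, a call lost without supernatant replicate 2 (adjusted p = 0.0656). Of 15 iron genes 3 rose, 3 fell and 9 did not pass, and without supernatant replicate 2 the falls were 1. Of 27 genes of the NRF2 and glutathione defence 8 rose, 5 fell and 14 did not pass. The peroxiredoxin gene Prdx1 had 26014.6 and 25422.1 normalized counts in the supernatant libraries and 17518.7 and 15974.6 in the vehicle libraries and Sqstm1, the gene of the autophagy receptor p62, had 8265.1 and 8041.7 normalized counts in the supernatant libraries and 6141.5 and 5552.0 in the vehicle libraries, and they rose by 0.62 and 0.48. Without supernatant replicate 2 there were 0 falls, without vehicle replicate 1 there were 2 and without either other library 3, and without vehicle replicate 2 the rises were 5. Among lipid genes, 4 of 13 in a mixed list of cholesterol efflux and related genes rose. They were the exporter Abca1 by 0.89, the carrier Npc2 by 0.31, Npc1 by 0.31 and Scd1 by 0.285. The 1 fall was that of Scd2 (log2 difference -0.22). Scd1 and Scd2 encode fatty acid desaturases, not efflux proteins. Their calls did not hold in every fit that left out 1 library. Of 30 genes of sterol and fatty acid synthesis 1 rose (0 without supernatant replicate 1 or vehicle replicate 2) and 3 fell, among them Stard4, a sterol carrier, by 0.31.

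Many genes of the cell cycle fell and none rose in the lists tested. Of 40 replication and G1/S genes 27 fell, with no rise, and the other 13 did not pass the test (median -0.29), and of 32 mitotic genes 14 fell, with no rise, and the other 18 did not pass the test (median -0.19). Ccne2 and Ccne1, which encode the E cyclins that start S phase, had 572.3 and 658.7 normalized counts in the supernatant libraries and 981.6 and 1255.8 in the vehicle libraries, and 250.1 and 245.5 normalized counts in the supernatant libraries and 401.4 and 391.4 in the vehicle libraries. E2f2, a transcription factor gene of the same step, had 170.1 and 190.8 normalized counts in the supernatant libraries and 321.9 and 318.7 in the vehicle libraries. None of the 3 overlapped between groups, and the falls were 0.85, 0.68 and 0.83 on the log2 scale. Rrm2, a subunit of ribonucleotide reductase, had 1442.0 and 1402.2 normalized counts in the supernatant libraries and 1903.3 and 1928.2 in the vehicle libraries, Ccnd1, the cyclin D1 gene, had 5898.5 and 5631.8 normalized counts in the supernatant libraries and 7503.3 and 7431.7 in the vehicle libraries, and Pcna, the sliding clamp of the polymerase, had 4174.6 and 4292.9 normalized counts in the supernatant libraries and 5648.5 and 5309.6 in the vehicle libraries. These falls of 0.43, 0.37 and 0.37 were small but exceeded the gap between replicates. Ccnf led the mitotic list with a fall of 0.51. Falls in the replication list were between 19 and 26 when any 1 library was left out, 10 without the filter and 3 without the trend. In the mitotic list they were 8 without supernatant replicate 1, 4 without vehicle replicate 2 and 0 in the fits without the filter or the trend. Whether the share of falls differed between these lists was not tested. MYC network and nucleolar genes gave 6 falls and 1 rise among 29, with 3 falls without vehicle replicate 1, and Mycn, with 483.8 and 486.8 normalized counts in the supernatant libraries and 1031.5 and 974.0 in the vehicle libraries, fell by 1.04.

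Falls also prevailed among the calls in a mixed list of cyclin-dependent kinase inhibitors and p53 targets. Cdkn1a, which encodes p21, had 2101.9 and 1949.7 normalized counts in the supernatant libraries and 3134.8 and 2966.7 in the vehicle libraries, Pmaip1, which encodes the apoptosis inducer NOXA, had 754.5 and 822.1 normalized counts in the supernatant libraries and 1084.6 and 1176.8 in the vehicle libraries, and Zmat3, another p53 target, had 801.8 and 775.9 normalized counts in the supernatant libraries and 1111.8 and 1045.8 in the vehicle libraries. The groups were apart at each, with falls of 0.59, 0.52 and 0.45. Plk2, a kinase gene that p53 and other signals induce, went against the list, with 5384.6 and 5323.8 normalized counts in the supernatant libraries and 1514.7 and 1140.0 in the vehicle libraries and a rise of 2.03 that was called under every alternative. Of 23 cyclin-dependent kinase inhibitor and p53 target genes 11 fell, 2 rose and 10 did not pass, and without vehicle replicate 2 the falls were 6. In the BCL2 family 5 of 15 rose, 2 fell and 8 did not pass. The survival genes Bcl2l1, at 721.8 and 680.1 normalized counts in the supernatant libraries and 463.5 and 395.9 in the vehicle libraries, and Mcl1, at 10847.3 and 11036.0 normalized counts in the supernatant libraries and 8684.0 and 9210.8 in the vehicle libraries, rose by 0.71 and 0.29. Bmf, which encodes a BH3-only death inducer, had 21.5 and 27.4 normalized counts in the supernatant libraries and 59.1 and 62.8 in the vehicle libraries and fell by 1.29, a call that was lost without the filter (adjusted p = 0.0547). Bcl2a1b rose by 0.65, but its near-identical paralogs may share its reads. The rises in this family were 3 without supernatant replicate 2 and 3 without vehicle replicate 2.

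The promoter of Cdc6, the loader of the replicative helicase, is shown for TTTNNCGC, the core of an E2F site. The letters were found in 4.28% of all promoters, 8.59% of those of genes tested and 11 of the 32 tested replication and G1/S genes with an entry. Part of the 40 tested genes had no entry, so a share over the list was not read. Falls made up 27 of all 40 tested, and a link of motif and fall was not tested. Cdc6 itself had 226.9 and 225.9 normalized counts in the supernatant libraries and 340.1 and 341.1 in the vehicle libraries and fell by 0.59; it was named for its promoter after its values were seen. The window is chr11:98907901-98908150 (plus strand), and capitals mark the match, on the opposite strand and beginning 138 bases before the start.
Cdc6: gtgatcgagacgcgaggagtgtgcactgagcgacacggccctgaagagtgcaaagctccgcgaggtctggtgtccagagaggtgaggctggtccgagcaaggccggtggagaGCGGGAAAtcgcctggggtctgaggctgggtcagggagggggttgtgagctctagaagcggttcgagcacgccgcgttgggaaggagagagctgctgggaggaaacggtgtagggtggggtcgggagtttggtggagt

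**Figure D3:**
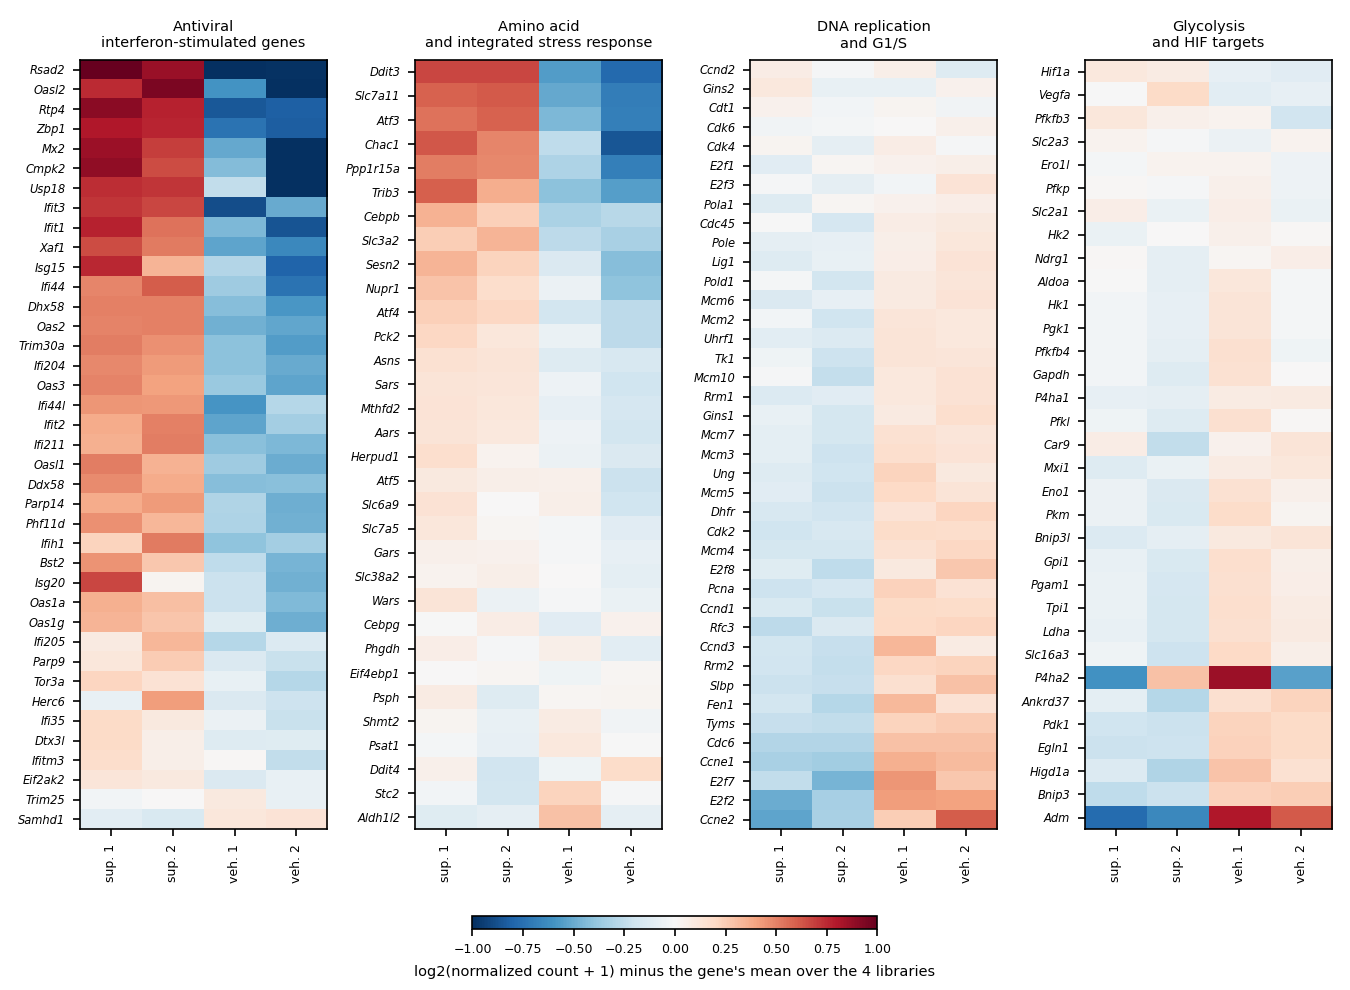
Log2(normalized count + 1) minus the mean of the gene over the 4 libraries, for the tested members (rows, ordered by log2 difference) of 4 lists, with the supernatant libraries in the left pair of columns and the vehicle libraries in the right pair. Red is above and blue below the mean of the gene, and the color scale ends at 1 and -1. The antiviral list has 33 rises of 39, the stress response list 16 of 32, the replication list 27 falls of 40 and the glycolysis list 14 of 33.

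The osteoclast program was divided by role. Most genes of the resorption machinery rose: of 19 tested, 12 rose, 1 fell and 6 did not pass (median 0.31). Ctsk, which encodes the collagen-degrading cathepsin K, had 316.2 and 284.9 normalized counts in the supernatant libraries and 169.7 and 169.7 in the vehicle libraries. Car2, the carbonic anhydrase that supplies protons, had 353.2 and 333.6 normalized counts in the supernatant libraries and 187.8 and 168.8 in the vehicle libraries. Clcn7, a chloride-proton exchanger that serves the resorption lacuna, had 926.4 and 914.5 normalized counts in the supernatant libraries and 624.8 and 568.2 in the vehicle libraries. Src, the kinase needed for the ruffled border, had 215.7 and 181.4 normalized counts in the supernatant libraries and 100.0 and 102.3 in the vehicle libraries, and Mmp14, a membrane-bound matrix protease, had 64.4 and 56.5 normalized counts in the supernatant libraries and 10.6 and 8.1 in the vehicle libraries. The supernatant libraries were higher throughout, by 0.82, 0.94, 0.63, 0.96 and 2.58 on the log2 scale. Acp5, which encodes the marker enzyme TRAP, had 25.8 and 24.0 normalized counts in the supernatant libraries and 12.1 and 20.6 in the vehicle libraries and did not pass (log2 difference 0.62, adjusted p = 0.199), nor did Mmp9, with 194.2 and 173.7 normalized counts in the supernatant libraries and 155.3 and 158.0 in the vehicle libraries (adjusted p = 0.214). The rises in this list were between 8 and 11 when any 1 library was left out, 6 without the filter and 4 without the trend.

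Calls among regulators of the program went both ways. Fos, a part of AP-1 that induces NFATc1, had 1350.0 and 1296.9 normalized counts in the supernatant libraries and 1887.4 and 1922.8 in the vehicle libraries and fell by 0.53. Nfatc1 had 1355.2 and 1236.2 normalized counts in the supernatant libraries and 1423.1 and 1607.7 in the vehicle libraries, and Tnfrsf11a, the gene of the receptor RANK, had 1978.2 and 1917.2 normalized counts in the supernatant libraries and 2206.2 and 2447.9 in the vehicle libraries. They fell by 0.22 and 0.25, small differences that did not hold without vehicle replicate 2 (adjusted p = 0.321 for Nfatc1 and 0.127 for Tnfrsf11a), nor for Nfatc1 without supernatant replicate 2 (0.263), after quantile normalization (0.107) or with recomputed size factors (0.0844). Map3k14, which encodes the kinase NIK of the alternative NF-kB pathway, had 108.3 and 111.2 normalized counts in the supernatant libraries and 203.7 and 201.1 in the vehicle libraries, the largest fall of its list (-0.88). Gab2 and Syk, signalling genes downstream of RANK and its costimulators, rose by 0.74 and 0.52. In all, 8 of 17 osteoclast transcription factor genes fell and 2 rose, Jdp2 and Jun, by 0.41 and 0.48, and of 24 receptor and signalling genes 5 fell and 3 rose. Without vehicle replicate 2 there were 3 falls and 2 rises among the transcription factors and 2 falls and 3 rises among the signalling genes. Without supernatant replicate 2 the falls in these lists were 5 and 2, and in the signalling list they were also 2 without vehicle replicate 1. Among 17 genes known to restrain osteoclast formation 5 rose and 3 fell. Tnfaip3, described above, was among the rises, and so was Irf8, with 592.9 and 539.0 normalized counts in the supernatant libraries and 508.2 and 376.1 in the vehicle libraries, a call that did not hold without vehicle replicate 2 (adjusted p = 0.377). Ptpn6, which encodes the phosphatase SHP-1, fell by 0.34. Without vehicle replicate 1 the rises were 3, and without replicate 2 of either group the falls were 1. Prdm1 was below the filter. Of the fusion genes, Dcstamp had 1503.0 and 1460.3 normalized counts in the supernatant libraries and 1598.8 and 1409.3 in the vehicle libraries, with overlapping groups and a log2 difference of -0.019, while its partner Ocstamp had 130.6 and 120.6 normalized counts in the supernatant libraries and 186.3 and 219.0 in the vehicle libraries and fell by 0.68. Atp6v0d2, a proton pump subunit gene also needed for fusion, rose by 0.60. The other 11 of 13 fusion genes tested did not pass.

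**Figure D4:**
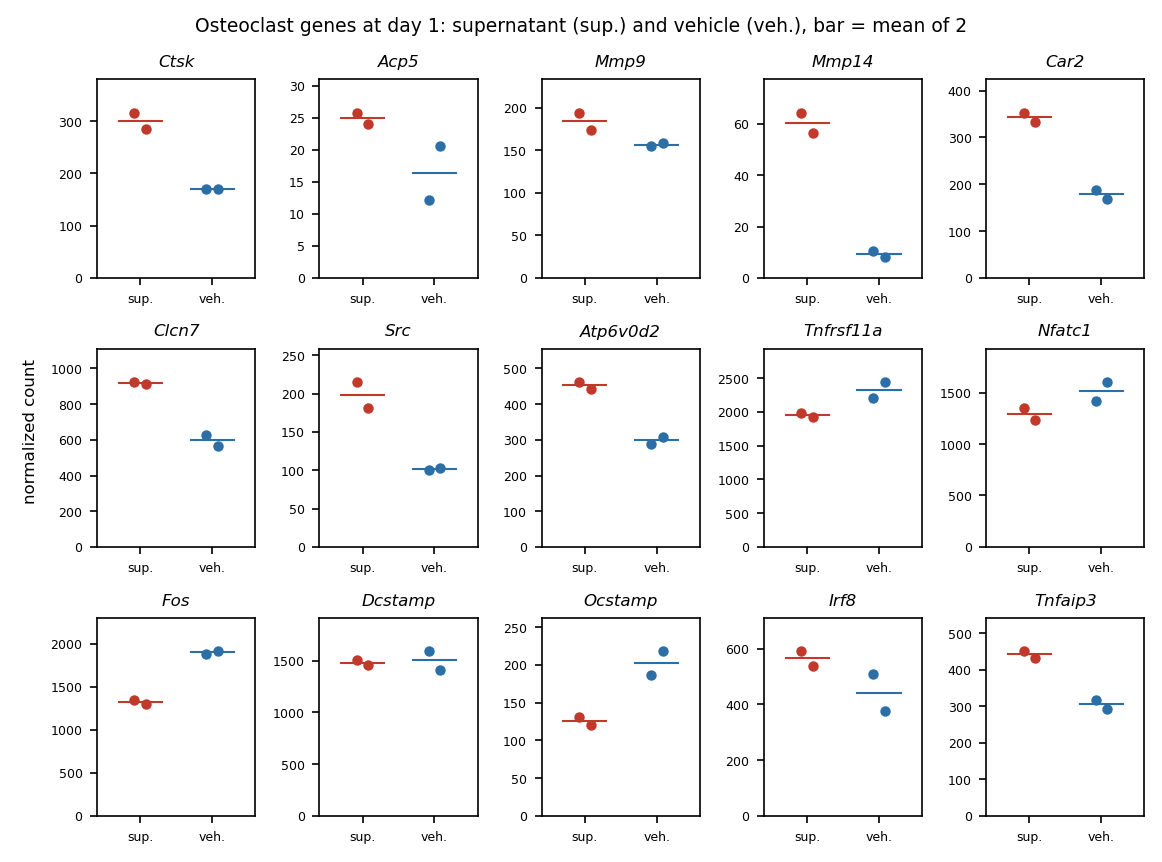
Normalized counts of 15 osteoclast genes in the 2 supernatant (left, red) and 2 vehicle (right, blue) libraries, with the mean of each pair as a bar and axes starting at 0. Resorption genes such as Ctsk and Clcn7 are higher in both supernatant libraries, Fos and Ocstamp lower, and the groups overlap at Dcstamp.

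Some lysosomal and matrix-degrading genes rose. Of 34 lysosomal hydrolase and proton pump genes 14 rose, 2 fell and 18 did not pass (median 0.18). The cathepsin genes Ctsb, at 36837.0 and 35677.8 normalized counts in the supernatant libraries and 26120.9 and 22554.4 in the vehicle libraries, and Ctsl, at 12204.2 and 11608.3 normalized counts in the supernatant libraries and 7872.1 and 7002.6 in the vehicle libraries, rose by 0.58 and 0.68. The falls were 1 when any 1 library was left out, and the rises 9 without supernatant replicate 1, 3 without the filter and 0 without the trend. Of 15 matrix protease and inhibitor genes 4 rose and none fell: Mmp14, Adamts1, with 413.3 and 433.7 normalized counts in the supernatant libraries and 177.2 and 136.4 in the vehicle libraries, Mmp12, with 861.9 and 886.3 normalized counts in the supernatant libraries and 488.5 and 392.3 in the vehicle libraries, and Plau, the urokinase gene, with 5254.8 and 5242.5 normalized counts in the supernatant libraries and 3427.9 and 2803.4 in the vehicle libraries. Groups did not overlap at any of the 4, which are the called members of the list. In the list of genes that hold the podosome, the adhesion structure of osteoclasts, 5 of 26 rose and 3 fell, Evl by 0.66 upward and Dock5, an exchange factor for Rac, by 0.49 downward. Without supernatant replicate 1 the podosome rises were 2, and without supernatant replicate 2 or vehicle replicate 2 they were 3.

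Genes outside these lists also stood among the largest changes. Il7r, which encodes a chain of the interleukin 7 receptor, had 1139.5 and 1234.5 normalized counts in the supernatant libraries and 367.3 and 303.4 in the vehicle libraries and rose by 1.83. Ccrl2, an atypical chemokine receptor gene, had 67.9 and 63.3 normalized counts in the supernatant libraries and 11.4 and 9.9 in the vehicle libraries, and Ptpn14, a tyrosine phosphatase gene, had 89.4 and 89.8 normalized counts in the supernatant libraries and 25.0 and 18.0 in the vehicle libraries. Prokr1, a prokineticin receptor gene, and Fabp4, a fatty acid carrier of macrophages and fat cells, rose by 1.95 and 1.91. All 5 were called under every alternative. Among falls, Nectin3, a cell adhesion gene, had 235.5 and 229.3 normalized counts in the supernatant libraries and 450.6 and 502.7 in the vehicle libraries, Cass4, a docking protein gene of the Cas family, had 108.3 and 116.3 normalized counts in the supernatant libraries and 217.4 and 251.3 in the vehicle libraries, and St6gal1, a sialyltransferase gene, had 104.0 and 95.0 normalized counts in the supernatant libraries and 206.8 and 220.8 in the vehicle libraries. Each stood near 1 log2 unit lower, at -1.03, -1.05 and -1.10. Kbtbd11, Nanos1 and Zc3hav1l fell by 1.09, 1.40 and 1.00. Htr1b, a serotonin receptor gene, and Lfng, a glycosyltransferase that modifies Notch, fell by 1.00 and 0.96, calls that were lost without the trend (adjusted p = 0.0733 for Htr1b and 0.0546 for Lfng). The fall with the most counts was that of Lpl, the lipoprotein lipase gene, which had 70130.1 and 73008.4 normalized counts in the supernatant libraries and 85694.9 and 88453.7 in the vehicle libraries and fell by 0.28, a call lost without supernatant replicate 1 (adjusted p = 0.193) or 2 (0.0843).

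**Figure D5:**
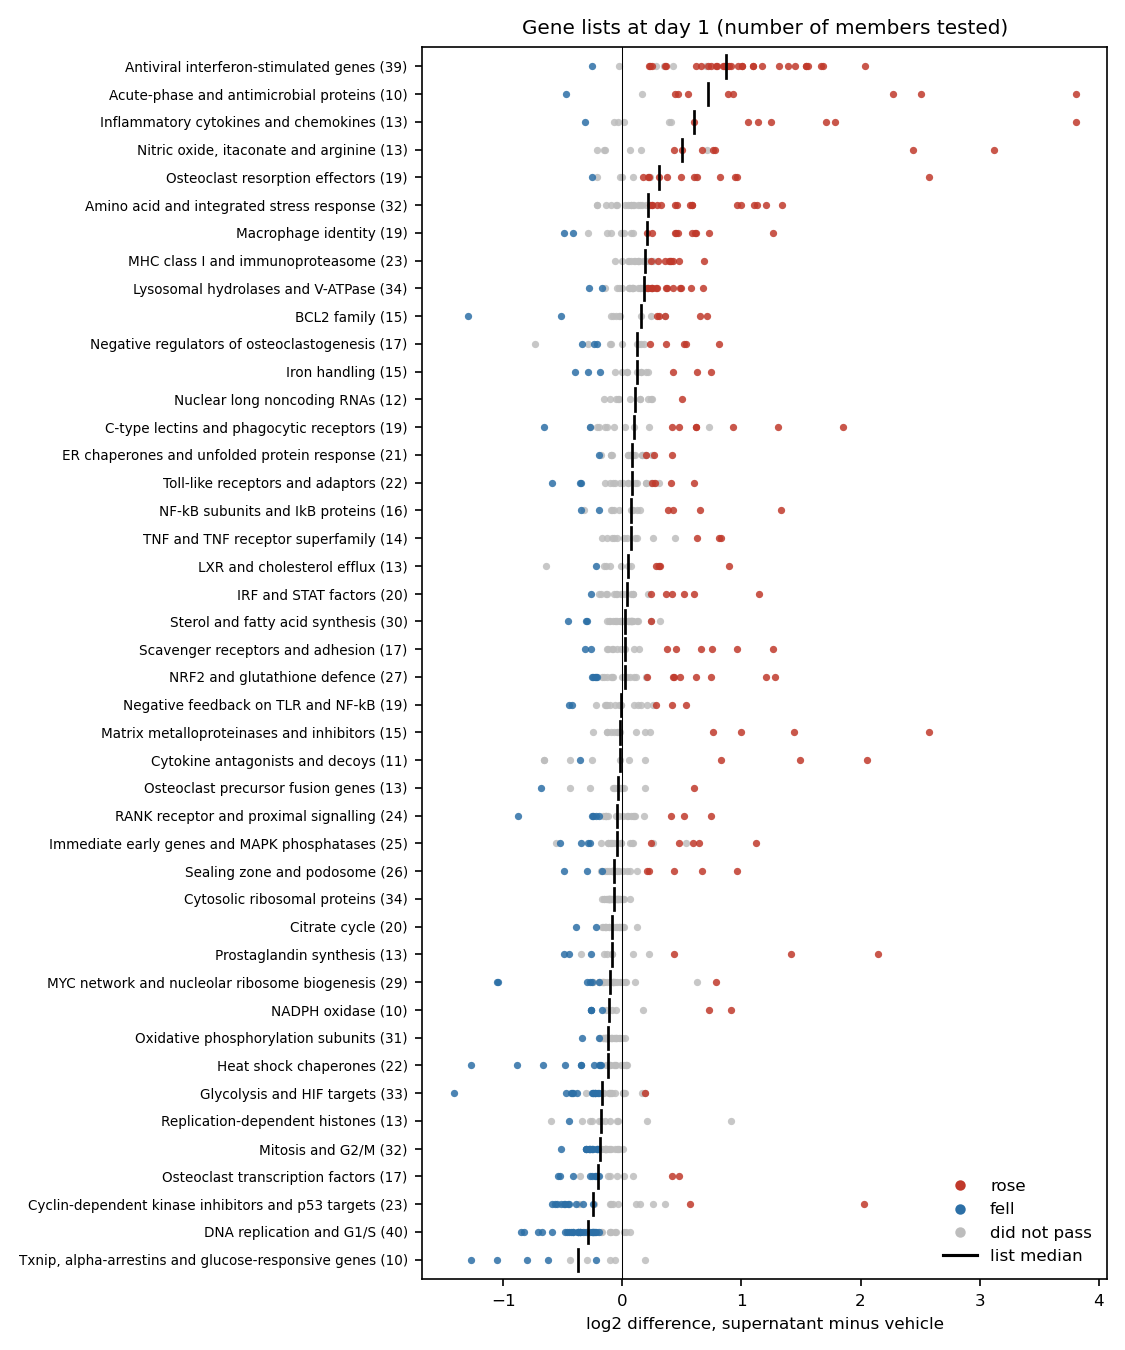
Log2 difference between supernatant and vehicle libraries of each tested member (points) of the gene lists with at least 10 tested members, ordered by list median (black line), with the number tested in brackets. Red members rose, blue members fell and grey members did not pass. The antiviral list has the highest median, 0.87, and the Txnip list the lowest, -0.37.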

How the data were processed

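The deposited values are log2(normalized count + 8) per Ensembl ID, from reads that went through TopHat2, SAMtools and DESeq2 with mm9, per the submitters' processing notes. Their versions, the annotation, the counting and its strand setting: not given in the sources used here. Of 24757 rows, 993 repeated an ID and were dropped, which left 23764. Counts were recovered by removing the log2 and the offset of 8, and gave whole reads (tolerance 0.02) for all values, so the normalized counts are reads divided by 1 factor per library. Because the deposited unit is log2, the main test was limma 3.58.1 in R 4.3.3, with a prior that follows the trend of spread with level, on log2(normalized count + 1) of the 4 libraries, for 13651 genes with a mean of at least 10 in either group. Benjamini-Hochberg adjusted p under 0.05 was called. Among the tested IDs, 134 held the same 4 values as another ID, 16 of them called. limma-voom on the recovered reads was an alternative, as were other pseudocounts, filters and scalings, the replicate block and the omission of each library. Counts for this comparison were also simulated (13629 genes, 200 changed), with the same dispersion of 0.001222 at every gene. On them the test called 49 of 67 genes changed by 0.5 log2 units, 62 of 67 by 1 and 61 of 66 by 2. It also called 14 unchanged genes. The share of false calls in the measured libraries was not tested.

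Named genes were the 15 largest rises and falls that had no overlap and reached a mean of 50 in 1 group, the 5 smallest p-values, the 5 most abundant rises and falls, up to 6 members per list with the smallest p, and a few set osteoclast and inflammatory genes. The members and lists were chosen with earlier results of these data known. Promoters came from RefSeq (GRCm38.p6), matched by symbol, and no coordinate was taken from mm9. No printed window held another of the 6 motifs searched. Python 3.11.15, numpy 2.4.6, pandas 2.3.3, scipy 1.17.1 and matplotlib 3.10.9 were used. A few genes are not reported here.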

Additional observations from a re-analysis of the deposited data

How the results depend on the processing

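Of the named genes that were called, none changed direction under any alternative. Among those that did not pass, the sign turned for Dcstamp without supernatant replicate 2 or vehicle replicate 1, after quantile normalization and with recomputed size factors (0.0018 to 0.072), and for Malat1 without supernatant replicate 2 (-0.024). With the replicate number as a block, 3701 genes changed and 2261 fell. The labels do not say that the numbers mark a shared culture. The deviations of same-numbered libraries correlated at 0.103 over 13651 genes. The second principal component carried 19.8% of the variance. On it replicates 1 and 2 lay at 7.457 and -9.382 in the supernatant group and at 13.699 and -11.774 in the vehicle group. With 2 libraries a group these values cannot show whether same-numbered libraries share more than a number. Of the 285 named genes tested, the block lost no call and added 28. Leaving out 1 library at a time gave 1338 to 1702 changed genes, 701 to 863 rises and 637 to 947 falls. Without the filter 435 genes changed, 285 up and 150 down, and with a prior without the trend 204, 161 up and 43 down. Falls were 816 after quantile normalization and 783 with recomputed size factors. limma-voom on the recovered reads gave 1006 rises and 1257 falls. Of the 241 named genes called, 58 were called under every alternative and 171 without each library. The causes of these differences were not tested. With 2 libraries a group, small differences of genes with few counts were not resolvable.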

Other observations

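Receptors for metabolites and lipid mediators rose in part. Of 9 tested, 5 rose, 1 fell and 3 did not pass. Ptafr, the receptor gene for platelet-activating factor, had 673.7 and 639.1 normalized counts in the supernatant libraries and 344.6 and 360.9 in the vehicle libraries. Hcar2, the receptor gene for niacin and ketone bodies, had 55.9 and 61.6 normalized counts in the supernatant libraries and 31.1 and 18.9 in the vehicle libraries, and Gpr84, a receptor gene for medium-chain fatty acids, had 209.7 and 196.8 normalized counts in the supernatant libraries and 133.3 and 112.2 in the vehicle libraries. Groups did not overlap at these 3, and they rose by 0.89, 1.24 and 0.73. Gpr183, which guides cells by oxysterols, fell by 0.44. Ligand and receptor genes of the TNF superfamily gave 3 rises among 14 and no fall, with Cd40, the receptor for CD40 ligand, at 98.0 and 91.5 normalized counts in the supernatant libraries and 55.3 and 52.1 in the vehicle libraries. The subunits of the NADPH oxidase, the source of the phagocyte burst, were split. Cybb, its catalytic subunit, had 27852.7 and 28377.8 normalized counts in the supernatant libraries and 17484.6 and 16547.3 in the vehicle libraries and rose by 0.72. Of 10 genes 4 fell, among them the cytosolic subunit gene Ncf1 by 0.27, and 2 rose. Without supernatant replicate 1 the rises were 1, and without either vehicle library the falls were 2.

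Genes of macrophage identity gave 10 rises and 2 falls among 19 tested. Csf3r, the receptor gene for granulocyte colony-stimulating factor, had 60.2 and 63.3 normalized counts in the supernatant libraries and 24.2 and 26.0 in the vehicle libraries, and Mpeg1, which encodes perforin-2, had 17207.3 and 16960.3 normalized counts in the supernatant libraries and 12052.0 and 10365.2 in the vehicle libraries. They rose by 1.26 and 0.61. Cx3cr1, the fractalkine receptor gene, had 4227.9 and 4204.8 normalized counts in the supernatant libraries and 5973.4 and 5901.2 in the vehicle libraries and fell by 0.49. Without vehicle replicate 2 there were 6 rises and 1 fall. Replication-dependent histone genes gave 1 fall among 13 (0 without vehicle replicate 2), and near-identical copies may share reads. Of 12 nuclear long noncoding RNAs only Neat1 passed, with a rise of 0.50; without supernatant replicate 1 there were 3 rises in that list. Malat1 had 27757.3 and 35155.1 normalized counts in the supernatant libraries and 27781.1 and 28650.4 in the vehicle libraries (limma adjusted p = 0.26), with overlap between groups, and its sign turned without supernatant replicate 2.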
